A study of Drosophila melanogaster with 23 samples.

Results

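Eclosion hormone (Eh), crustacean cardioactive peptide (CCAP) and corazonin (Crz) are neuropeptides of the insect moulting and eclosion system. Their transcripts were followed here in Drosophila melanogaster, in eyes and in cells labelled through the Pdf, Tim or Elav promoter. The members were the probe sets that the probe annotation gives to 1 of these genes alone. Each of the 3 genes had a single such probe set among 11982 genes measured (Entrez gene 42101 for Eh, 42683 for CCAP and 41742 for Crz). The 23 one-colour Affymetrix arrays held 8 groups. There were 2 replicates of adult small Pdf cells and 3 of every other group, all titled biological replicates. In adults these were fluorescent large and small PDF neurons from Pdf-Gal4;UAS-GFP flies, eyes dissected from heads, and fluorescent neurons of Elav-Gal4;UAS-GFP flies. In larvae they were fluorescent cells of Pdf-Gal4;UAS-GFP animals, of Tim-Gal4;Pdf-Gal80;UAS-YFP animals, of Tim-Gal4;UAS-YFP animals and of Elav-Gal4;UAS-GFP animals. Gal4 is a driver protein that switches on the fluorescent reporter under the promoter of the named gene, and Gal80 blocks Gal4, so that in the Tim Pdf-Gal80 animals the PDF cells are left without label. Per the labels, each sample pooled cells from some 50 heads taken near Zeitgeber time 12 in a cycle of 12 h light and 12 h dark, and cells were picked by hand.

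Moulting in insects ends with ecdysis, the shedding of the old cuticle, and in flies the emergence of the adult from the pupal case is called eclosion. Eclosion hormone comes from a small set of ventromedial brain neurons and acts on the Inka cells of the trachea, which release ecdysis triggering hormone. That hormone acts in turn on central neurons, among them cells that make CCAP and bursicon, which drive the shedding movements and the tanning of the new cuticle. Corazonin sets off the release of ecdysis triggering hormone in the moth Manduca, and in Drosophila it is known from neurosecretory cells of the dorsolateral brain. The circadian clock gates the hour of eclosion, through clock neurons in the brain and a clock in the prothoracic gland, the source of ecdysone.

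The expression values are log2 values made with GCRMA, per the submitters' processing notes, a method known to correct each probe for background by its base composition. Transcripts that are not detected lie near 2 to 3 on this scale, and a log2 value of 5 was taken as the limit of detection. Where the dimmer group lay wholly under 5 and the brighter wholly above it, the fold is a lower bound ("at least"). Folds were computed after values under 5 had been raised to 5. Differences were tested with limma in 1 model of the 8 group means. Each SE and p-value thus rests on a spread pooled over all 8 groups, not on that of the groups compared alone. The p-values were adjusted by the Benjamini-Hochberg method over the 7670 genes that exceeded 5 on at least 2 arrays. A gene was called where the adjusted p was under 0.05 and the fold at least 2. Of the 3 members Eh and Crz passed this filter. CCAP exceeded 5 on 1 array and was not tested. Levels are compared between groups of a gene and not between genes.

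The labelled cell types were first set against their markers. Pdf itself lay between 14.70 and 15.76 in both adult Pdf groups, and between 2.76 and 3.03 in larval Tim Pdf-Gal80 cells, against 14.21 to 14.54 in larval Tim cells. In adult eyes all 4 photoreceptor markers exceeded 5 on each array. The mean of 5 neuron markers was 9.75, 10.55 and 10.32 in larval Tim cells, against 6.38, 4.62 and 4.88 in larval Elav cells. On these larval Elav arrays only 3, 1 and 1 of the markers exceeded 5, and elav itself did on each (10.5 to 12.9). Glia markers (6 measured) averaged 7.88 to 9.46 in larval Tim cells, against 4.16 to 4.75 in larval Elav cells, and 5 of 6 were called higher. All 3 neuroblast markers were called lower in larval Tim, larval Tim Pdf-Gal80 and larval Pdf cells than in larval Elav cells, with means of 5.23 to 7.97 in larval Tim cells, against 9.83 to 10.95 in larval Elav cells. The part of these cell markers in the differences from larval Elav cells given below was not tested. In bulk samples of this kind fewer cells of a type and less RNA per cell cannot be told apart.

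Among the larval groups Eh was highest in Tim cells, and it was below detection in larval Pdf and larval Elav cells. Eh was 2.28, 2.24 and 2.25 in larval Pdf cells. In larval Tim Pdf-Gal80 cells it was 11.87, 2.23 and 2.27. It was 13.35, 14.99 and 13.26 in larval Tim cells, against 2.25, 2.23 and 2.26 in larval Elav cells. Of the larval Tim Pdf-Gal80 arrays 1 of 3 was high, all 3 larval Tim arrays were high, and every larval Pdf and larval Elav array was at the level of undetected genes.

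Larval Tim cells exceeded larval Elav cells in Eh at least 466-fold, a log2 difference of 11.62 ± 1.66 (SE, limma adjusted p = 4.61e-05). In this comparison 23.4% of all tested genes were called, and of the 2 tested members Eh was called and Crz was not. With values under 5 raised to 5, mean Eh in larval Tim Pdf-Gal80 cells was 95.3-fold lower than in larval Tim cells. This fold is no lower bound, for 1 of the 3 larval Tim Pdf-Gal80 arrays stayed above 5. The log2 difference was -8.41 ± 1.66 (SE, limma adjusted p = 0.00237) and was called, with 16.2% of genes called. That call rests on the spread shared over all 8 groups, for with only the larval Tim Pdf-Gal80 and larval Tim arrays in the model the same difference had an adjusted p of 0.114. Without the high replicate 1 of the larval Tim Pdf-Gal80 group the log2 difference was -11.62. Against larval Elav cells the mean of larval Tim Pdf-Gal80 cells differed by 3.21 on the log2 scale, with a 95% interval from -0.26 to 6.68 (limma adjusted p = 0.133). There 40.1% of genes were called and neither tested member was. Leaving out replicate 2 or 3 of the larval Tim Pdf-Gal80 group gave 4.82 (adjusted p = 0.0365) or 4.81 (adjusted p = 0.0352), both past the threshold, while leaving out replicate 1 gave 0.0015.

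Larval Pdf cells had at least 466-fold less Eh than larval Tim cells, a log2 difference of -11.61 ± 1.66 (SE, limma adjusted p = 3.12e-04). Only 2.89% of all tested genes were called between these groups. Pdf was abundant on every array of both. Between larval Pdf and larval Tim Pdf-Gal80 cells the Eh difference of -3.20 did not pass (limma adjusted p = 0.176), with 22.7% of genes called and neither tested member among them. Between larval Pdf and larval Elav cells, both under detection for Eh, 26.0% of genes were called and neither tested member was.

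**Figure D1:**
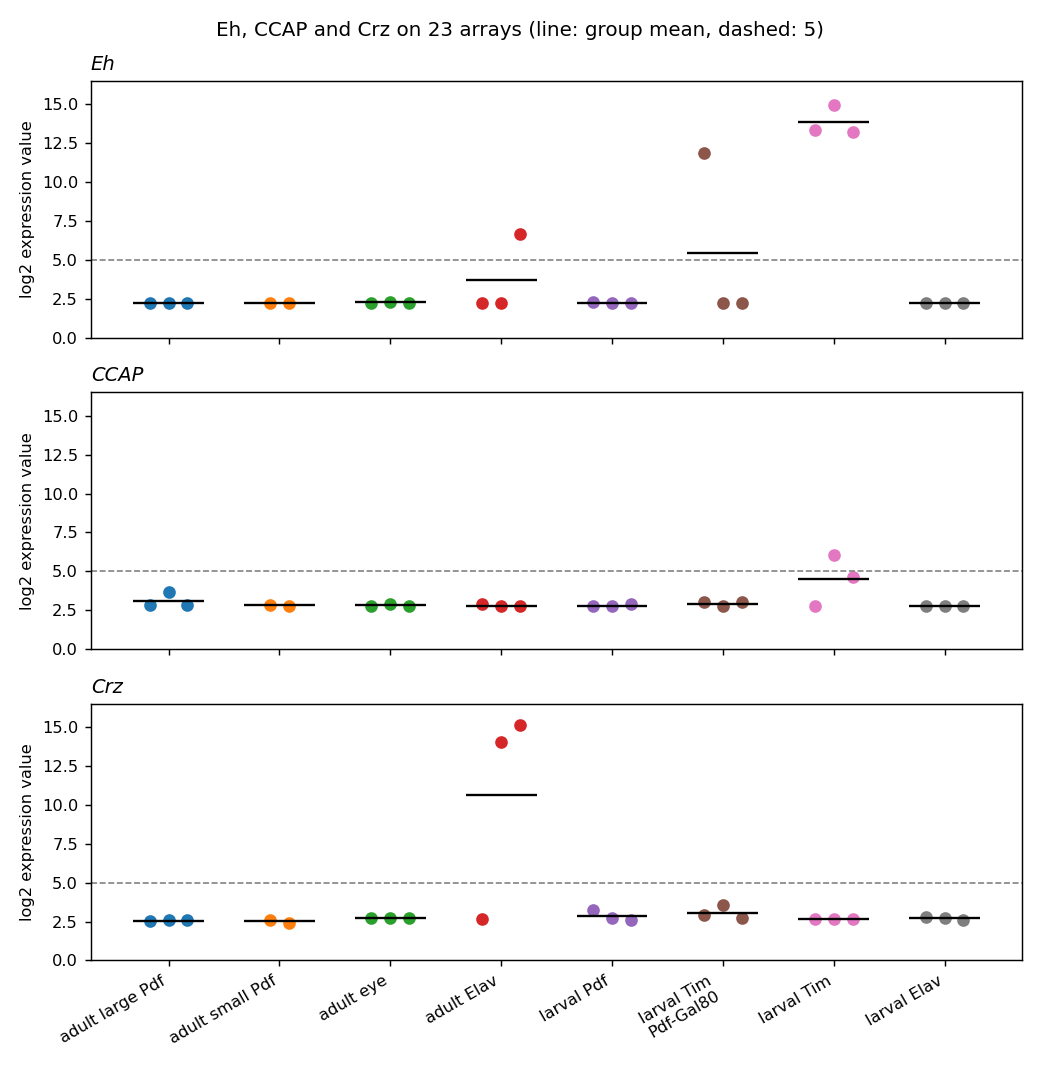
Log2 expression values (vertical axes) of Eh, CCAP and Crz on each of 23 arrays, by sample group. Points are arrays, black lines group means, and the dashed line marks 5. Eh stands above it on 1 adult Elav array, 1 larval Tim Pdf-Gal80 array and all 3 larval Tim arrays, CCAP on 1 larval Tim array, and Crz on 2 adult Elav arrays.

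In adults Eh was near background almost throughout. It lay between 2.26 and 2.27 in large Pdf cells, between 2.26 and 2.27 in small Pdf cells, and between 2.26 and 2.30 in eyes, against 2.27, 2.26 and 6.70 in adult Elav cells. The single adult Elav array above 5 was replicate 3. No adult comparison of Eh passed the test. The limma log2 differences from adult Elav cells were -1.48 for large Pdf cells (adjusted p = 0.703), -1.48 for small Pdf cells (adjusted p = 0.759) and -1.47 for eyes (adjusted p = 0.518). Adult Elav cells differed from larval Elav cells by 1.496 (limma adjusted p = 0.513). Ordered by group mean, Eh was highest in larval Tim cells, then in larval Tim Pdf-Gal80 cells (5.46) and adult Elav cells (3.74). The arrays of these last groups overlapped, and in the other 5 groups Eh was not detected.

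CCAP was close to the limit of detection in larval Tim cells and below it everywhere else. It was 2.76, 2.77 and 2.89 in larval Pdf cells, and 3.01, 2.79 and 3.00 in larval Tim Pdf-Gal80 cells. In larval Tim cells it was 2.77, 6.07 and 4.65, against 2.79, 2.78 and 2.80 in larval Elav cells. The larval Tim arrays thus ran from undetected to above 5, and replicate 1 overlapped the other larval groups. In adults the highest value was 3.66, on 1 array of large Pdf cells. The remaining adult arrays lay between 2.77 and 2.88. The log2 difference of larval Tim over larval Elav cells was 1.71. When no filter on low values was applied, limma gave this difference an adjusted p of 0.0317. Under that setting larval Tim Pdf-Gal80 cells against larval Tim cells (-1.56) had an adjusted p of 0.0574 and larval Pdf cells against larval Tim cells (-1.69) one of 0.137. With values under 5 raised to 5 the difference of larval Tim over larval Elav cells shrank to 0.36. The receptor of CCAP, CCAP-R, stayed under 5 on every array.

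Crz was not detected in the larval samples, adult Pdf cells or eyes, and stood out on 2 adult Elav arrays. It was 2.52, 2.57 and 2.58 in large Pdf cells, 2.61 and 2.44 in small Pdf cells, and 2.73, 2.74 and 2.73 in eyes, against 2.69, 14.01 and 15.11 in adult Elav cells. Replicate 1 of the adult Elav cells therefore lay within the range of the other groups, while the other 2 replicates held values near the top of the scale of these arrays. In larvae the values ran from 2.57 to 3.57 over all 12 arrays. The highest of them was replicate 2 of larval Tim Pdf-Gal80 cells. Crz passed the filter only through the 2 high adult Elav arrays, so that a difference from the adult Elav cells was built into its selection, and the p-values below are no independent evidence of it.

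In adult large Pdf cells Crz was lower than in adult Elav cells, with a log2 difference of -8.05 ± 1.84 (SE, limma adjusted p = 0.00785), at least 83.1-fold with 2 of 3 adult Elav arrays above 5. In this comparison 9.06% of genes were called. The difference for small Pdf cells was -8.08 ± 2.06 (SE, limma adjusted p = 0.0170), with 8.75% of genes called. For eyes it was -7.87 ± 1.84 (SE, limma adjusted p = 0.00216), with 39.9% of genes called. With no filter the adjusted p was 0.0248 for large Pdf cells, 0.0443 for small Pdf cells and 0.00752 for eyes. In each of these 3 comparisons Crz was called and Eh was not. They share the adult Elav arrays and so are not independent of each other. Between large and small Pdf cells 3.62% of genes were called and neither tested member was.

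Adult Elav cells exceeded larval Elav cells in Crz by 7.90 ± 1.84 (SE, limma adjusted p = 0.00167), a comparison in which 43.7% of genes were called. As above, the fold was 83.1 with values under 5 raised to 5, and replicate 1 did not show it. With only the groups compared in the model none of these calls held. The adjusted p was then 0.283 for large Pdf cells, 0.372 for small Pdf cells, 0.103 for eyes and 0.118 for adult against larval Elav cells. Without replicate 2 of the adult Elav group the difference for large Pdf cells was -6.35 (adjusted p = 0.0527) and that for small Pdf cells -6.38 (adjusted p = 0.0788). Without replicate 3 they were -5.80 (adjusted p = 0.0552) and -5.83 (adjusted p = 0.0764). Without replicate 1 the difference for large Pdf cells was -12.01 (adjusted p = 1.85e-13).

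Between stages, large Pdf cells of adults and Pdf cells of larvae showed no detected member, with 26.5% of all tested genes called and neither tested member among them. For adult small against larval Pdf cells 12.3% were called, again with neither. The difference of differences, adult Pdf over adult Elav minus larval Pdf over larval Elav, called Crz for large cells (-8.20 ± 2.61, SE, limma adjusted p = 0.0344, 17.7% of genes called). For small cells it was -8.24 ± 2.76 (SE, limma adjusted p = 0.0499, 15.3% of genes called). Crz was undetected in both larval groups and in adult Pdf cells, so both values restate the 2 high adult Elav arrays. With no filter neither was called (adjusted p = 0.0812 for large and 0.110 for small cells). Over 32 alternatives the call was lost in 15 for large cells and in 29 for small cells. Eh did not pass in either.

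Eh in larval Tim Pdf-Gal80 cells and Crz in adult Elav cells were among the genes with the widest spread over replicate arrays. With values under 5 raised to 5, the highest and lowest adult Elav arrays differed by 10.1 log2 units for Crz, the largest range of 7670 genes in that group, against a median of 0.695. In that group 42 genes (0.548%) had 1 array under 5 and another above 10, and Crz was among them. In larval Tim Pdf-Gal80 cells the range of Eh was 6.87, at rank 12, against a median of 0.756. There 40 genes (0.522%) had 1 array under 5 and another above 10, Eh among them. In larval Tim cells, where all arrays were high, the range of Eh was 1.73 against a median of 0.857, and in adult Elav cells it was 1.70, at rank 1109. In the other groups all arrays of Eh, and of Crz, lay under 5, so that the range was 0.

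**Figure D2:**
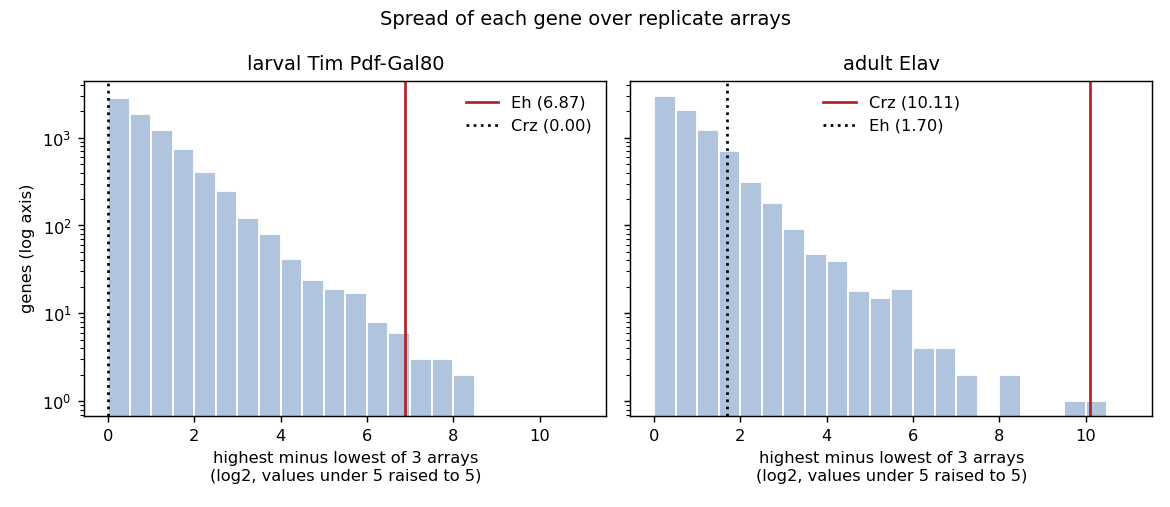
Number of genes (vertical log axis) by the difference between the highest and lowest of 3 arrays (horizontal axis, log2 units, values under 5 raised to 5) in larval Tim Pdf-Gal80 and adult Elav cells. Vertical lines mark Eh and Crz. Eh in larval Tim Pdf-Gal80 cells (6.87) and Crz in adult Elav cells (10.1) lie at the far right.

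Markers of other cells were read on the same larval arrays. Larval Tim and Tim Pdf-Gal80 samples both held transcripts of endocrine glands. The mean of 7 prothoracic gland markers was 11.81, 11.74 and 11.42 in larval Tim Pdf-Gal80 cells, against 10.64, 10.57 and 5.60 in larval Tim cells. All 7 exceeded 5 on each of these arrays except replicate 3 of larval Tim cells, where 4 did. In larval Pdf and larval Elav cells the mean stayed between 2.28 and 2.49, with none above 5. Eh was detected on 1 of these 3 larval Tim Pdf-Gal80 arrays, and was 13.26 on the larval Tim array with the lowest gland mean. The part of gland cells in the Eh signal was not tested.

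The methyltransferase jhamt, which makes juvenile hormone in the corpus allatum, was 13.71, 14.18 and 14.22 in larval Tim Pdf-Gal80 cells, against 14.56, 12.65 and 9.77 in larval Tim cells. Akh, the adipokinetic hormone of the corpora cardiaca, was between 2.00 and 2.02 in larval Tim Pdf-Gal80 cells, against 13.42, 2.00 and 2.21 in larval Tim cells. Akh exceeded 5 on 1 larval Tim array, and Eh on all 3. The part of corpus allatum and corpora cardiaca cells in the Eh signal was not tested. Neuron markers averaged 9.07, 9.83 and 7.28 in larval Tim Pdf-Gal80 cells, where replicate 3 had only 2 of 5 above 5. In larval Tim cells all 5 exceeded 5 on every array. Of the 5, 2 were called lower in larval Tim Pdf-Gal80 than in larval Tim cells and 1 higher, with 16.2% of all tested genes called. Snap25 had the higher mean in larval Tim Pdf-Gal80 cells (11.05 against 8.86). Glia markers averaged 5.90 to 7.22 in larval Tim Pdf-Gal80 cells and 7.88 to 9.46 in larval Tim cells. Neuroblast markers averaged 3.12 to 3.44 in larval Tim Pdf-Gal80 cells and 5.23 to 7.97 in larval Tim cells. The part of neuron, glia and neuroblast content in the Eh difference between these groups was not tested.

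**Figure D3:**
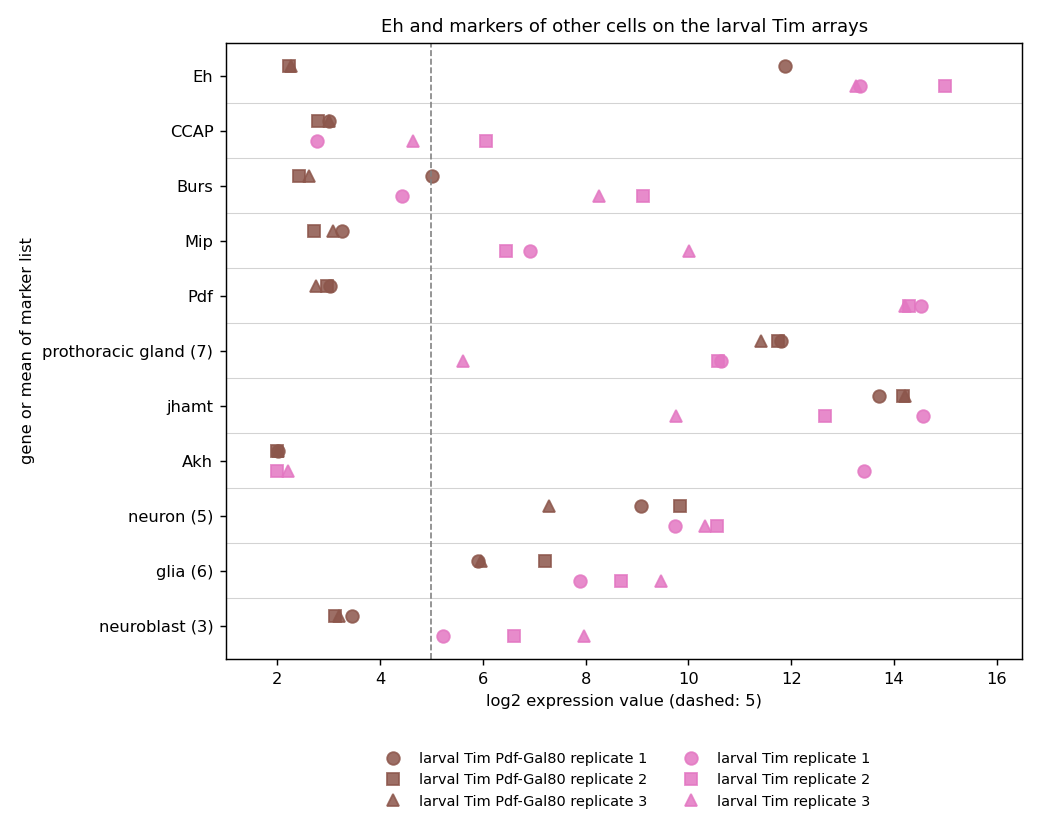
Log2 expression values (horizontal axis) of Eh, CCAP, other genes and mean marker levels (number of markers in brackets) on the 3 larval Tim Pdf-Gal80 and 3 larval Tim arrays. Marker shapes give the replicate and the dashed line marks 5. Eh was above 5 on 1 larval Tim Pdf-Gal80 array and on all 3 larval Tim arrays, and the prothoracic gland mean was 11.42 to 11.81 in larval Tim Pdf-Gal80 cells.

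The other peptides of ecdysis were examined as a list of 7 genes, of which 6 were measured and 5 tested. In larval Tim against larval Elav cells 2 rose and 1 fell, where 23.4% of all tested genes were called, and the list median was 0.50 against -0.09 over all genes. Burs, the alpha subunit of the tanning hormone bursicon, was 4.43, 9.12 and 8.25 in larval Tim cells, against 2.53, 2.40 and 2.44 in larval Elav cells. Its log2 difference was 4.81 ± 0.81 (SE, limma adjusted p = 2.16e-04). Burs exceeded 5 on 2 larval Tim arrays and on 1 larval Tim Pdf-Gal80 array (5.002) only. It thus passed the filter only through larval Tim cells. Its p-values against these cells, here and below, are no independent evidence. Mip, the myoinhibitory peptide precursor, was 6.92, 6.44 and 10.01 in larval Tim cells, against 3.88, 2.81 and 2.77 in larval Elav cells. Its difference was 4.64 ± 0.83 (SE, limma adjusted p = 3.79e-04). ETH, the precursor of ecdysis triggering hormone, went the other way. It was 4.14, 5.17 and 6.17 in larval Tim cells, against 7.64, 8.55 and 9.19 in larval Elav cells, a difference of -3.30 (limma adjusted p = 6.00e-05).

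In larval Tim Pdf-Gal80 cells against larval Tim cells 3 of the 5 tested peptides fell and none rose. Of all tested genes 16.2% were called, 948 lower and 297 higher, and the list median was -2.35 against -0.33 over all genes. Burs was 5.002, 2.41 and 2.61 in larval Tim Pdf-Gal80 cells, a difference of -3.92 (limma adjusted p = 0.00319) that overlapped the lowest larval Tim array. The replicate with the highest Burs in that group was the one with high Eh. Mip was between 2.72 and 3.27 there (difference -4.77, limma adjusted p = 9.78e-04). ETH was between 2.62 and 3.17 (difference -2.35, limma adjusted p = 0.00330). In larval Pdf against larval Tim cells, where 2.89% of all tested genes were called, 2 fell. They were Burs, with a difference of -4.86 (limma adjusted p = 0.00139), and Mip, with -4.93 (limma adjusted p = 0.00146). Against larval Elav cells ETH alone was called, lower, in both larval Tim Pdf-Gal80 and larval Pdf cells. Of all tested genes 40.1% were called for larval Tim Pdf-Gal80 cells and 26.0% for larval Pdf cells.

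In adults the peptides called were Mip, FMRFa and Lk, each lower in large Pdf cells, small Pdf cells and eyes than in adult Elav cells (3 of 5 tested in each comparison). Of all tested genes 9.06% were called for large Pdf cells, 8.75% for small Pdf cells and 39.9% for eyes. FMRFa and Lk, like Crz, passed the filter only through adult Elav arrays. FMRFa, a precursor of FMRFamide-like peptides, was at most 3.44 in large Pdf cells, small Pdf cells and eyes, against 13.50, 11.70 and 13.98 in adult Elav cells. Mip was at most 5.80 in the same groups, against 12.99, 15.60 and 13.78 in adult Elav cells. Both were high on all 3 adult Elav arrays, including replicate 1, where Crz was not detected. Lk, the leucokinin precursor, was 6.82, 2.23 and 6.53 in adult Elav cells, so that its undetected array was replicate 2, not replicate 1. Ptth, the brain hormone that stimulates the prothoracic gland, stayed under 5 on every array.

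**Figure D4:**
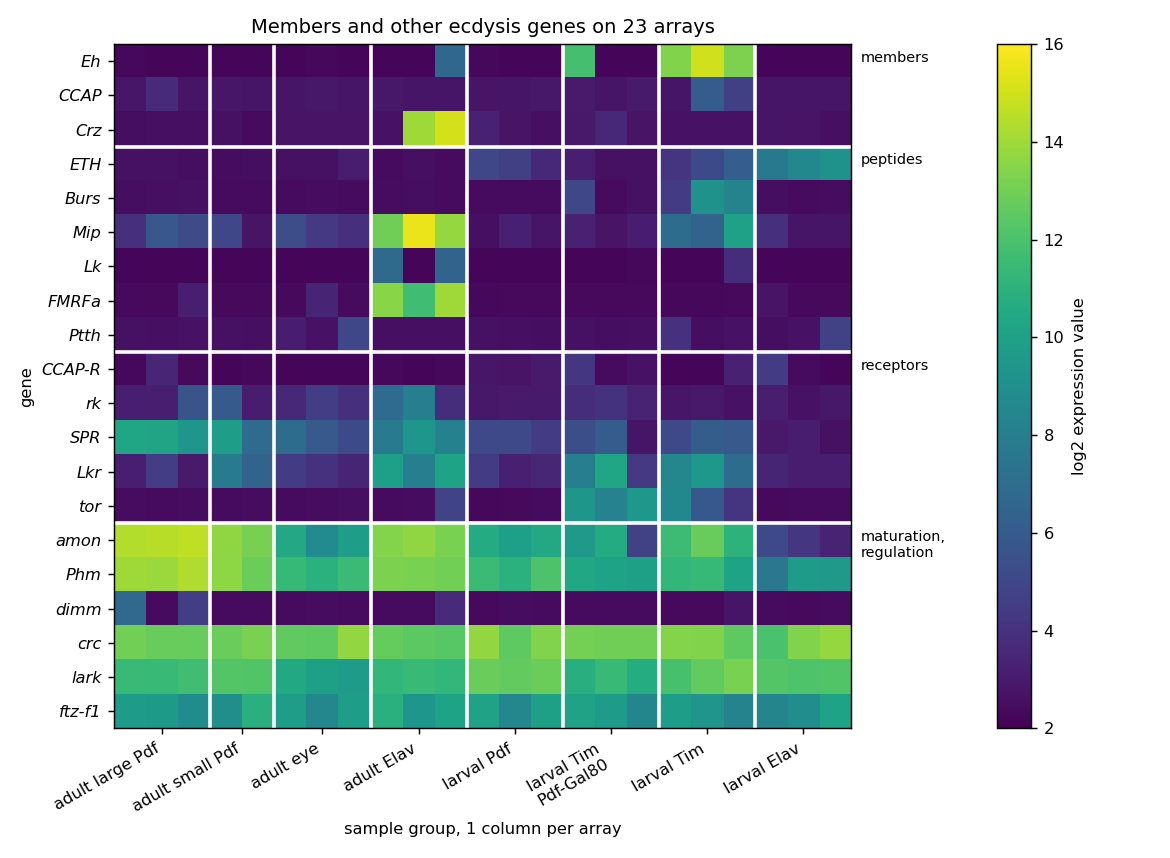
Log2 expression values (colour) of the 3 members and the measured genes of the peptide, receptor and maturation lists (rows) on 23 arrays (columns, by sample group). White lines separate groups and lists. Eh is bright in larval Tim cells, Crz on 2 adult Elav arrays, and Mip and FMRFa on all 3 adult Elav arrays.

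Of the 8 listed receptors 5 were measured and 4 tested. In larval Tim against larval Elav cells 3 rose and none fell (median 3.30 against -0.09 over all genes), where 23.4% of all tested genes were called, 1056 higher and 739 lower. They were Lkr, the leucokinin receptor (5.10, limma adjusted p = 9.76e-04), tor, the receptor of Ptth on prothoracic gland cells (3.76, limma adjusted p = 0.00125), and SPR, a receptor of Mip and of sex peptide (2.84, limma adjusted p = 0.0104). Lkr and tor also rose in larval Tim Pdf-Gal80 against larval Elav cells, tor by 6.63 (limma adjusted p = 2.62e-06). In that comparison 40.1% of all tested genes were called. Unlike Eh, tor was higher in larval Tim Pdf-Gal80 cells (9.39, 8.23 and 9.46) than in larval Tim cells (8.54, 5.85 and 4.11), a difference of 2.86 (limma adjusted p = 0.0161). In larval Pdf against larval Tim cells Lkr and tor fell, with 2.89% of all tested genes called. In adults SPR, Lkr and rk, the bursicon receptor, fell in eyes against adult Elav cells (39.9% of all tested genes called). Lkr fell in large Pdf cells (9.06% called), and none of the receptors was called in small Pdf cells (8.75% called).

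Of 6 listed genes of peptide maturation and regulation 5 were tested. Both processing enzymes rose in larval Tim against larval Elav cells: amon, the prohormone convertase, by 7.58 (limma adjusted p = 1.54e-05) and Phm, the enzyme that amidates peptides, by 1.99 (limma adjusted p = 0.00685). Of all tested genes 23.4% were called there. Both enzymes also rose in larval Pdf against larval Elav cells, where no member was detected and 26.0% of all tested genes were called. The difference was 6.12 for amon (limma adjusted p = 1.11e-04) and 2.58 for Phm (limma adjusted p = 8.14e-04). In larval Tim Pdf-Gal80 cells amon was 9.52, 10.62 and 4.70, lower than in larval Tim cells by a log2 difference of -3.51 (limma adjusted p = 0.0190). The RNA-binding protein gene lark, known for its role in the timing of eclosion, was also lower there, by a difference of -1.61 (limma adjusted p = 0.00463). In that comparison 16.2% of all tested genes were called. Larval Tim Pdf-Gal80 against larval Elav cells had amon called higher (mean 8.28 against 4.21) and lark lower (10.98 against 12.20). There 40.1% of all tested genes were called. Neither crc, a transcription factor known to act on ETH, nor the nuclear receptor gene ftz-f1 was called in the larval comparisons or against adult Elav cells. In eyes amon, Phm and lark fell against adult Elav cells, where 39.9% of all tested genes were called. In adult Pdf cells none of the list was called, with 9.06% of all tested genes called for large and 8.75% for small cells.

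Genes with a pattern most like that of Eh were ranked by Pearson's r over the 8 group means, with values under 5 raised to 5, among 5210 genes whose group means ranged over at least 2. Since Eh was at the limit in most groups, such an r mainly reflects the larval Tim mean. The closest were CG15082 (r = 0.996), Cyp301a1 (0.978), the peptide precursor gene CCHa1 (0.972), Burs (0.967) and Nplp4 (0.967). Over the 23 arrays the r was 0.843 for CG15082, 0.452 for Cyp301a1, 0.911 for CCHa1, 0.739 for Burs and 0.603 for Nplp4. Whether all arrays were normalised together was not stated. CG15082 was 4.57, 8.66 and 2.24 in larval Tim Pdf-Gal80 cells, against 11.93, 12.90 and 11.44 in larval Tim cells. Its high replicate in the larval Tim Pdf-Gal80 group was thus replicate 2, while that of Eh was replicate 1. CCHa1 was 9.18, 8.87 and 3.38 in larval Tim Pdf-Gal80 cells, against 10.72, 11.48 and 9.20 in larval Tim cells.

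For Crz 6 genes tied at r = 1 over the group means, namely CG13996, FMRFa, Or63a, Tmtc1, natalisin and ple, because each exceeded the limit in the adult Elav mean alone. Over the 23 arrays their r with Crz ran from 0.485 to 0.831. The neuropeptide gene natalisin was closest of them, at 2.18, 14.73 and 7.75 on the 3 adult Elav arrays. Its undetected array was replicate 1, as for Crz. By contrast ple, which encodes tyrosine hydroxylase of dopamine cells, was 11.09, 9.96 and 9.11, and CG13996 was 10.99, 2.36 and 11.02. Oatp26F was chosen after its values were seen. As deposited, without raising low values, it had an r of 0.997 with Crz over the 23 arrays, at 2.31, 5.85 and 5.84 in adult Elav cells. Both genes exceeded 5 on adult Elav replicates 2 and 3 alone. This r therefore mainly reflects those 2 arrays and is no independent evidence of a likeness.

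Other peptide genes were uneven on the adult Elav arrays too. Ilp2, an insulin-like peptide of median brain cells, was 2.78, 10.71 and 5.25, and Ilp5 was 2.26, 10.37 and 2.24. The mean of the 5 neuron markers was 12.14, 12.06 and 11.36 on the same arrays, with all 5 above 5 on each. The part of the cells picked in these differences between replicates was not tested.

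**Figure D5:**
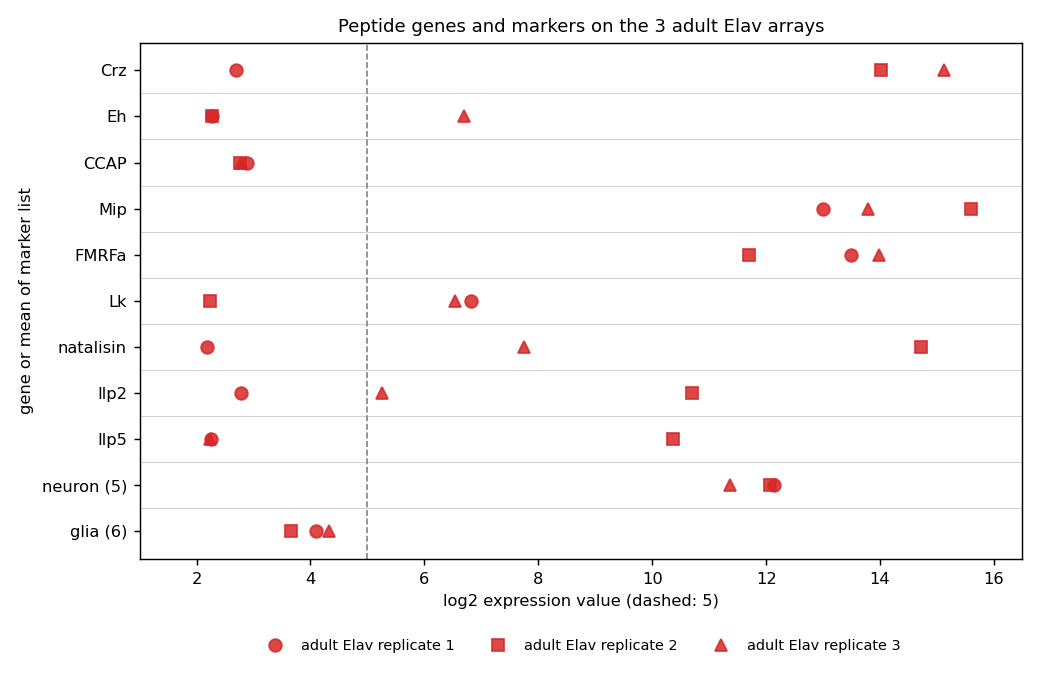
Log2 expression values (horizontal axis) of the members, other peptide genes and mean marker levels (number of markers in brackets) on the 3 adult Elav arrays. Marker shapes give the replicate and the dashed line marks 5. Crz and natalisin were undetected in replicate 1, Lk in replicate 2, and Mip and FMRFa were above 11 on all 3.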

How the data were processed

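The values are log2 expression values deposited by the authors and made with GCRMA, per the submitters' processing notes. Its version and settings were not stated there. Per the labels' protocols, RNA was amplified by T7 transcription in 2 rounds from inputs of 0.1 to 0.4 ng, and yield can differ between genes and samples. No batch or scan date was given, and the number of arrays limits the precision. The labels call the replicates biological but do not say what each was separate in, so the p-values cover the spread between these samples.

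Of 18952 probe sets 183 were controls, 13647 had 1 gene in the platform annotation, 402 several and 4720 none. Symbols of 13544 were updated by gene identifier against RefSeq's gene table, used for names only. Each of 11982 genes was represented by its probe set with the highest mean; 7670 above 5 on at least 2 of 23 arrays were kept. limma 3.58.1 in R 4.3.3 fitted 8 group means (15 residual degrees of freedom, two-sided tests, 15 comparisons) and was tested on simulated data. Those data gave a gene the same spread in every group, unlike Eh and Crz, and so do not bear on the calls of these genes. Members and gene lists were chosen with earlier results of these data known. Named genes were the members, listed ecdysis genes called in a larval or adult comparison, receptors of members, and per member the 5 genes most like it over group means (6 for Crz, which tied); Oatp26F was added after its values were seen. Pburs, ETHR, CrzR and FMRFaR were not analysed here. Samples of the same replicate number did not deviate together (median correlation -0.0146 over 77 pairs), so the numbers were not taken as pairs. Alternatives changed the filter, the normalisation, the low values, the weights, the probe set rule, the block and the samples fitted.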

Additional observations from a re-analysis of the deposited data

Results flagged for a closer look

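Crz passed the test of a difference between stages, but had passed the filter only through the adult Elav cells in which it was high, so the test is no independent evidence. The difference of adult large Pdf from adult Elav cells minus that of larval Pdf from larval Elav cells was -8.20 on the log2 scale (limma adjusted p = 0.0344). With small Pdf cells in place of large it was -8.24 (limma adjusted p = 0.0499). Both values rest on replicates 2 and 3 of the adult Elav cells, in which Crz was 14.01 and 15.11, while replicate 1 was at 2.69. With no filter neither was called (adjusted p = 0.0812 and 0.110), and over 32 alternatives the call was lost in 15 for large and in 29 for small Pdf cells.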

How the results depend on the processing

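Eh in larval Tim against larval Elav cells kept its direction and call in all 33 alternatives (log2 difference 8.86 to 12.40), as did Eh in larval Pdf against larval Tim cells (-12.39 to -8.86). Eh in larval Tim Pdf-Gal80 against larval Tim cells lost its call with only the groups compared (-8.41), also with values under 5 raised to 5 (-6.57). Against larval Elav cells it gained a call with array weights (4.73) and ran from 0.0015 to 4.82 when single arrays were left out. Eh in larval Pdf against larval Tim Pdf-Gal80 cells turned to 0.0078 without replicate 1 of the larval Tim Pdf-Gal80 group (left-out range -4.81 to 0.0078). Without replicate 3 of the adult Elav group Eh turned to 5e-04 in large Pdf cells (range -2.22 to 5e-04) and to 0.010 in eyes (range -2.21 to 0.010). None of these Eh values that turned was called. These follow from single arrays that held the only signal above 5.

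Calls of Crz were less firm. With only the groups compared, no Crz call held, at -8.05 for large Pdf cells, -8.08 for small Pdf cells, -7.87 for eyes, 7.90 for adult over larval Elav cells, and -8.20 and -8.24 for the differences of differences. With low values raised as well these were -6.38, or 6.38 for adult over larval Elav cells. Array weights ended the calls for small Pdf cells (-6.73) and for the differences of differences with large (-6.82) and small Pdf cells (-6.85). No filter on low genes ended both differences of differences (-8.20 and -8.24). That with small Pdf cells was also lost with low values raised to 5 (-6.38), with the mean of all probe sets (-8.24) and with a replicate block (-7.97); the replicate block ended no other call of a member. Leaving out single arrays gave -12.01 to -5.80 for large Pdf cells, -12.04 to -5.83 for small Pdf cells, -12.16 to -5.95 for the difference of differences with large cells and -12.19 to -5.98 for that with small cells. The last held its call in 3 of 32 alternatives. The cause of these losses was not tested.

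The number of called genes fell with only the groups compared and low values raised, to 807 of 1795 for larval Tim against larval Elav cells, 1834 of 3075 for larval Tim Pdf-Gal80 and 808 of 1996 for larval Pdf against larval Elav cells, 249 of 1245 for larval Tim Pdf-Gal80 and 10 of 222 for larval Pdf against larval Tim cells, and 603 of 1740 for larval Pdf against larval Tim Pdf-Gal80 cells. In adults it fell to 361 of 695 for large and 289 of 671 for small Pdf against adult Elav cells, 22 of 278 for large against small, and 689 of 2036 and 85 of 945 for large and small against larval Pdf cells. With only the groups compared and low values kept it was lower still for larval Pdf against larval Tim cells (5) and for large against small Pdf cells (19). Array weights raised it to 3402 for larval Tim against larval Elav cells, and to 2403 and 495 for larval Tim Pdf-Gal80 and larval Pdf against larval Tim cells. Transcripts under 5 cannot be ranked, and with 2 or 3 arrays a group a gene found on 1 array of 3 remains poorly fixed.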
